A study of Mus musculus with 12 samples.

Results

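Transcripts assembled inside the introns of 787 mouse genes were followed in hippocampus after intranasal delivery of small interfering RNA (siRNA). They are the loci that the authors' tables class as intronic, with a locus shorter than 300000 bases and a mean of at least 1 FPKM (fragments per kilobase of transcript, scaled to the number of mapped fragments) over 12 libraries. The rule gave 1473 loci of 22306 in the tables. The tables hold 3922 intronic loci in all, of which 1889 were below the length limit and 416 of those were under 1 FPKM. All mice were C57BL/6 and received 10 micrograms of siRNA through the nose, either a scramble sequence (siScramble, 4 libraries), one against Hdac4 (siHdac4, 4 libraries), which encodes a class IIa histone deacetylase, or one against Bdnf (siBdnf, 4 libraries), which encodes brain-derived neurotrophic factor. Every group, controls included, therefore carried an siRNA, and no untreated mouse was analysed here. The animals were killed after 3 days. The labels give neither age nor sex and do not say whether a library is 1 animal or a pool, so p-values cover variation among these libraries, which may be technical. Libraries were made from poly(A)-selected RNA with a directional kit.

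Most of a gene's primary transcript is intron and is removed during splicing. Poly(A) selection enriches spliced messenger RNA, so signal inside an intron can come from unspliced or partly spliced precursor RNA primed within the intron, from retained introns, from transcripts that end early at an intronic poly(A) site, or from separate genes nested in the intron, such as processed pseudogenes. A processed pseudogene is a reverse-transcribed copy of another gene's messenger RNA. In brain, whose neuronal genes have long introns, precursor RNA makes up an appreciable share of nuclear RNA.

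Nested processed pseudogenes could be read base by base. Of the 137 loci below 3000 bases, 20 overlapped an annotated exon in GENCODE M21 (mouse build GRCm38), 14 of them (10.2%) an exon of a pseudogene, and 117 overlapped none. The overlap with a pseudogene exon was at least 90% of the locus for 6 loci, and the 3 most abundant of these are shown because their sequence, next to that of the spliced parent gene, shows what the loci contain. Each sequence is GENCODE's transcript over the coding part of the parent that the locus covers, 5′ to 3′ on the pseudogene's strand and at most 300 bases long, and capitals mark bases that differ from the parent. Parent bases missing from the pseudogene are neither marked nor counted, so the identities below refer to the printed bases only.
1700128E19Rik locus, Gm45420, chr8:11714820-11714979, strand −: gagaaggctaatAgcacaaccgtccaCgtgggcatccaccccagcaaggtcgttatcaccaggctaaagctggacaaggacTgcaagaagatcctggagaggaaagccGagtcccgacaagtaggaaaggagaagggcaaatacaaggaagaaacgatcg
1700016D06Rik locus, Gm7600, chr8:11683944-11684243, strand −: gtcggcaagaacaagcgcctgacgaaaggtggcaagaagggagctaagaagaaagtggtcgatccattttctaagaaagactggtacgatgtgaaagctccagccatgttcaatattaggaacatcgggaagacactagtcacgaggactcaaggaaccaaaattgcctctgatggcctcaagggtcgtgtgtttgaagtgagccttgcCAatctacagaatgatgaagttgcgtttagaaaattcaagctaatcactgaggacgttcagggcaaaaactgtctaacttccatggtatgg
Efcab11 locus, Gm19238, chr12:99804821-99805120, strand −: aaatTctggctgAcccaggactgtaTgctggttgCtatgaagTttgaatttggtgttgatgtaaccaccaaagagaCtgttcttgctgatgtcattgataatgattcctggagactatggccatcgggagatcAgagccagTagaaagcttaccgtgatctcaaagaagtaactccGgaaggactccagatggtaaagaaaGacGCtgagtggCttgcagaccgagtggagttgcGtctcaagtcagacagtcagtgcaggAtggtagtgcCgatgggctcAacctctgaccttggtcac
The first, in an intron of 1700128E19Rik, differed from the parent Rpl26, a large-subunit ribosomal protein gene, at 4 of 160 bases (97.5% identity). The second, in 1700016D06Rik, differed from Rps3a1, a small-subunit ribosomal protein gene, at 2 of 300 bases (99.3% identity). The third, in Efcab11, differed from Paics, a purine synthesis enzyme gene, at 17 of 300 bases (94.3% identity). How fragments matching both parent and copy were assigned is not stated, so these levels are uncertain. The 1700128E19Rik locus had FPKM of 134, 221, 210.2 and 245 in siScramble (libraries 1 to 4), 268, 165, 193 and 231 in siHdac4 and 199, 169, 197 and 199.5 in siBdnf. All 3 groups overlapped, with siScramble library 1 lowest and siHdac4 library 1 highest. The parent Rpl26 averaged 265 ± 63.1, 319.9 ± 53.2 and 248 ± 31.3 FPKM (SD, n = 4 each) in siScramble, siHdac4 and siBdnf. The 1700016D06Rik locus had FPKM of 9.11, 6.89, 6.52 and 9.46 in siScramble (libraries 1 to 4), 8.41, 10.7, 8.52 and 8.32 in siHdac4 and 8.75, 8.505, 7.51 and 9.12 in siBdnf, against 83.5 FPKM for Rps3a1 over the 12 libraries. Its groups overlapped as well. The Efcab11 locus averaged 2.75 FPKM and Paics 51.1 FPKM. The other 3 loci lay in pseudogenes of Pa2g4, Atad3a and Dnajc2 within Cnga1, Gm26704 and C130060K24Rik, at 2.28, 1.95 and 1.18 FPKM. A seventh short locus, in Ube2v2 at 1.28 FPKM, lay to 96.0% in an annotated retained intron and was named after its overlap was seen.

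The name of shorter genes holds for the locus column and not always for the gene. For 1213 of the 1473 loci the listed span was shared with another row, in 883 cases with the protein-coding row of the same gene name, so it gives the host's extent and not the position of the intronic fragment. Positions are as listed, and the build, which the labels do not give, was inferred as GRCm38 from overlap with GENCODE. The libraries kept strand, but whether the counting used it is not stated, so a gene and its antisense partner cannot be told apart. The other 260 had a span of their own, with a median of 2851.5 bases (132 to 275305). Host genes could be matched to GENCODE M21 by name and position for 1389 loci, and in 209 of these (15.0%) the annotated gene was 300000 bases or longer. They include 106 of the 245 matched loci with a span of their own, such as the 19 in Plxna4. No sequence is shown for loci with a shared span. Loci of Sgcz (297738 bases, 2.20 and 1.53 FPKM) and AW554918 (298782 bases, 2.26 FPKM) lay just below the limit, and those of Kcnq3 (300441 bases, 8.82 to 94.6 FPKM) and Ranbp17 (301686 bases, 2.604 FPKM) just above it.

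Neither targeted gene passed the test in its own group, so the groups are named by the labelled treatment and not by a measured knockdown. Hdac4 had FPKM of 45.9, 31.5, 40.6 and 38.6 in siScramble (libraries 1 to 4), 34.0, 48.2, 39.6 and 42.3 in siHdac4 and 35.9, 44.8, 39.1 and 40.2 in siBdnf (siHdac4 against siScramble, 0.07 on the log2 scale, limma adjusted p = 0.863). Bdnf had FPKM of 5.33, 5.51, 5.14 and 5.50 in siScramble (libraries 1 to 4), 5.94, 6.46, 5.38 and 5.15 in siHdac4 and 5.19, 4.84, 5.29 and 5.43 in siBdnf (siBdnf against siScramble, −0.04, limma adjusted p = 0.906). The groups overlapped for both genes. All 8 markers of hippocampal excitatory neurons had a protein-coding row, the lowest being Prox1 at a mean of 10.5 FPKM. Summed over 10 markers of choroid plexus and ependyma, siScramble libraries 1 and 3 held 862 and 2127 FPKM and the other 10 libraries 20.6 to 96.0 FPKM. The files give no read totals, so the depth behind a value is unknown.

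Intronic loci were low-abundance transcripts with a few very abundant ones. Their median level was 4.25 FPKM (quartiles 2.09 and 9.10), 1146 of 1473 were under 10 FPKM and 33 reached 100 FPKM or more. Among loci with a span of their own, the shortest were the most abundant: the median was 10.8 FPKM for 28 loci below 500 bases, 3.86 FPKM for 32 loci of 500 to 1000 bases, 1.87 FPKM for 74 loci of 1000 to 3000 bases and 1.54 FPKM for 61 loci of 3000 to 10000 bases. The decline did not extend to the 65 loci of 10000 to 300000 bases, whose median was 2.24 FPKM. All of these are medians of loci past the 1 FPKM minimum only. FPKM divides by length, and how far this set the order was not tested. Relative variation between libraries was larger than in protein-coding loci, with median coefficients of variation of 0.193 and 0.118 over the 12 libraries. The classes were not matched for level, so this difference is not separated from that of abundance. In 8 loci at least 1 library was listed at 0. The Btbd3 locus was the only one of the 1473 at 0 throughout a group, siBdnf. It was also at 0 in siScramble libraries 1 and 4 and siHdac4 libraries 2 to 4, with 3.02 and 5.68 FPKM in siScramble libraries 2 and 3 and 4.76 FPKM in siHdac4 library 1.

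A single protein-coding row of the same gene name, the host row, was found for 1101 loci, and it reached 1 FPKM for 1043 of them in 545 hosts. Another 13 loci had 2 or 3 such rows and 359 had none, mostly because the gene name sat in a row that joins overlapping loci (134) or several genes (128). The intronic locus was below its host in 880 of the 1043 and above it in 163. The median difference was −1.26 on the log2(FPKM + 1) scale (quartiles −1.92 and −0.41). Across the 1043 loci the levels of locus and host had a Spearman correlation of 0.56, a description across loci that share libraries and hosts. Lowest relative to the host were loci in Gnas, the stimulatory G protein gene, at 2.11 FPKM, and in Olfm1, a secreted neuronal glycoprotein gene, at 5.42 FPKM, whose host rows ran from 338 to 479.5 FPKM and from 397 to 439.8 FPKM. Over the 12 libraries the correlation of a locus with its own host row had a median of 0.15 (quartiles −0.12 and 0.40, above 0 in 669 of 1043). Loci of the same host correlated with each other at a median of 0.33 over 2622 pairs, against 0.19 for pairs from different hosts. With the library median removed the values were 0.19 and −0.002.

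**Figure D1:**
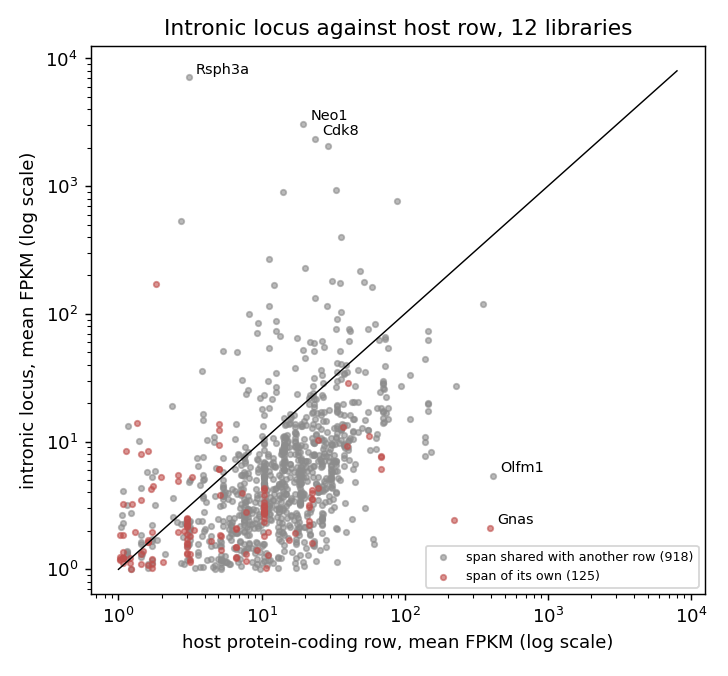
Mean FPKM over 12 libraries of each intronic locus (y axis, log scale) against the protein-coding row of its host (x axis, log scale), for the 1043 loci with a host row of at least 1 FPKM. The diagonal is equality. 880 loci lie below it, and Rsph3a, Neo1 and Cdk8 lie far above it.

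Several of the most abundant loci varied widely between libraries of the same group. The Rsph3a locus had FPKM of 1459.7, 3086, 17280.3 and 10865 in siScramble (libraries 1 to 4), 3069.8, 1686, 2301 and 4409 in siHdac4 and 6047, 17694, 7782 and 9977 in siBdnf. Its mean of 7138 FPKM was the highest of all. Rsph3a encodes a radial spoke head protein of motile cilia, and its host row stayed between 2.13 and 4.01 FPKM. Libraries siScramble 3 and siBdnf 2 were highest and siScramble 1 and siHdac4 2 lowest, and the groups overlapped. The Atf2 locus had FPKM of 737, 708, 6656 and 2279 in siScramble (libraries 1 to 4), 1292, 803, 1334 and 1104 in siHdac4 and 1203, 3839.8, 2012 and 3010.2 in siBdnf. Atf2 encodes a basic leucine zipper transcription factor, and its locus too was highest in siScramble 3 and siBdnf 2.

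The Neo1 locus had FPKM of 1053, 4059, 3270.0 and 5193 in siScramble (libraries 1 to 4), 1478, 885, 2029 and 2594 in siHdac4 and 4789, 2517, 4113 and 4862 in siBdnf. Neo1 encodes neogenin, a receptor for netrins and repulsive guidance molecules, and its locus was lowest in siHdac4 2 and siScramble 1, with overlapping groups. One of 2 Cdk8 loci had FPKM of 2333, 1419, 9486 and 1353 in siScramble (libraries 1 to 4), 1985, 2033, 2229.9 and 1777 in siHdac4 and 1134, 1545, 1595 and 1249.8 in siBdnf. Cdk8 encodes the kinase of the Mediator complex, and siScramble library 3 stood apart from the other 11 libraries, which lay between 1134 and 2333 FPKM. Ddah1, which degrades asymmetric dimethylarginine, averaged 842 ± 239 FPKM, 807 ± 103 FPKM and 1053 ± 118 FPKM (SD, n = 4 each) in siScramble, siHdac4 and siBdnf. The shortest locus, 132 bases in Morc1, a germline ATPase gene, averaged 3072 ± 727 FPKM, 3256 ± 358 FPKM and 2537 ± 328 FPKM (SD, n = 4 each). None of these loci passed the test in any comparison.

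Other loci ran the opposite way. The Npffr2 locus had FPKM of 44.7, 19.7, 6.04 and 5.45 in siScramble (libraries 1 to 4), 44.8, 35.3, 24.05 and 13.4 in siHdac4 and 6.27, 8.56, 6.31 and 5.83 in siBdnf. Npffr2 encodes a neuropeptide FF receptor, and its locus was low in every siBdnf library and in siScramble 3 and 4, and high in siScramble 1 and siHdac4 1 and 2. The Abcc6 locus had FPKM of 29.3, 26.9, 11.7 and 10.5 in siScramble (libraries 1 to 4), 36.7, 48.4, 57.3 and 31.9 in siHdac4 and 23.7, 25.4, 16.5 and 18.7 in siBdnf. Abcc6 encodes an ATP-binding cassette transporter, and every siHdac4 library was above every siScramble and siBdnf library, without passing the test (1.21 against siScramble, limma adjusted p = 0.327). Ostn, the gene of the secreted peptide osteocrin, averaged 597 ± 217 FPKM, 585 ± 58.3 FPKM and 369 ± 54.6 FPKM (SD, n = 4 each) at a locus of 173 bases. The choroid plexus sum was high in siScramble 1 as well as siScramble 3, which lay near opposite ends for Rsph3a, Atf2 and Npffr2. Whether choroid plexus content is related to the level of any of these loci was not tested.

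**Figure D2:**
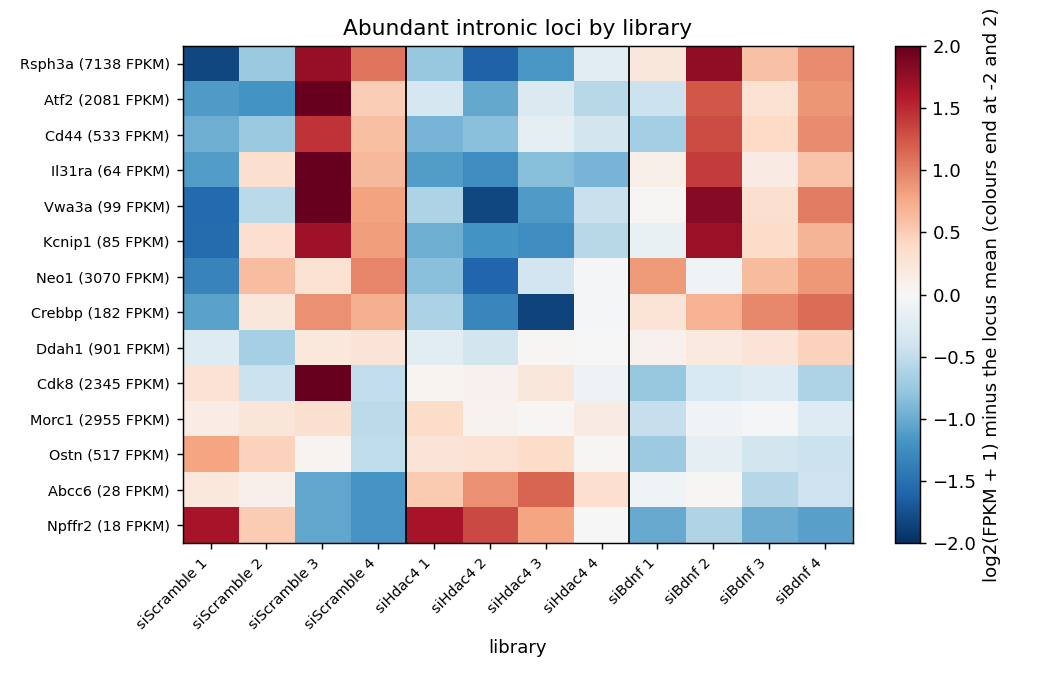
Level of 14 intronic loci in each of the 12 libraries (columns, grouped by treatment), as log2(FPKM + 1) minus the locus mean, with red above and blue below the mean. The loci were picked by hand and not by rank of abundance. Cdc42bpa (772 FPKM) is left out and Il31ra (63.8 FPKM) is shown, so shared libraries describe these loci and not abundant loci as a class. Rsph3a, Atf2, Cd44, Il31ra, Vwa3a and Kcnip1 share their high libraries, siScramble 3 and siBdnf 2, while Npffr2 is low there.

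As a class, intronic loci shifted from library to library while protein-coding loci stayed near their means. FPKM is scaled to the mapped fragments of each library, so protein-coding loci are not an independent reference for this shift. In bulk tissue, fewer cells of a type and less RNA per cell cannot be told apart. The median deviation of the 1473 loci from their own mean over the 12 libraries was −0.13, −0.03, 0.07 and 0.08 (log2) in siScramble libraries 1 to 4. It was −0.05, −0.07, −0.12 and −0.02 in siHdac4 libraries 1 to 4 and 0.04, 0.05, 0.08 and 0.17 in siBdnf libraries 1 to 4. Each siHdac4 value was thus below and each siBdnf value above the siScramble mean of −0.003, and the siScramble libraries alone spanned all 4 siHdac4 values and 3 of the 4 siBdnf values. For 11061 protein-coding loci the same medians stayed between −0.0150 and 0.0101, and for the 1870 intronic loci with a longer locus they ran from −0.17 to 0.19. Relative to the host row, the 1043 loci had medians of −0.10, −0.03, 0.04 and 0.03 in siScramble, −0.04, −0.06, −0.08 and 0.01 in siHdac4 and 0.05, 0.04, 0.07 and 0.15 in siBdnf.

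**Figure D3:**
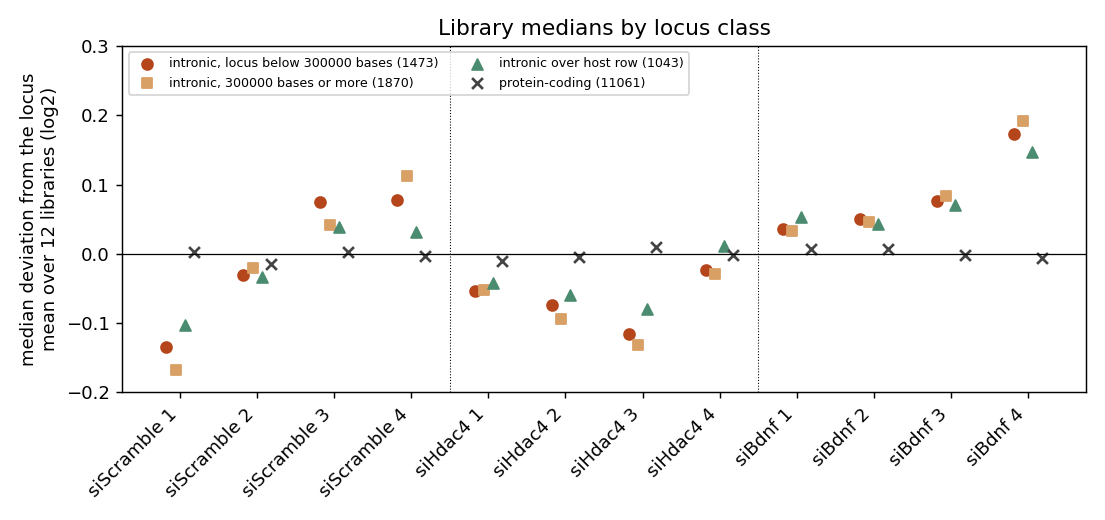
Median deviation of each locus class from its locus means (y axis, log2) in each of the 12 libraries (x axis). The 1473 intronic loci (circles) are below 0 in all 4 siHdac4 libraries, above 0 in all 4 siBdnf libraries and on both sides in siScramble, and protein-coding loci (crosses) stay near 0.

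siHdac4 was compared with siScramble to ask which intronic loci followed the siRNA against Hdac4. A single locus rose and none fell. It was 1 of 2 in Gm7120 (chromosome 13, 119488652 to 119645995), a predicted gene, and rose by 1.43 (SE 0.25, limma adjusted p = 0.0426) on the log2(FPKM + 1) scale, which all fold changes here use and which understates changes of low loci. It lies outside the rule for named loci, which leaves predicted genes out, and was named after its value was seen. The called Gm7120 locus had FPKM of 8.69, 4.14, 10.2 and 12.6 in siScramble (libraries 1 to 4), 18.0, 30.6, 25.04 and 24.8 in siHdac4 and 16.9, 19.3, 19.7 and 20.8 in siBdnf. All siHdac4 and all siBdnf libraries were above all siScramble libraries, and siHdac4 and siBdnf overlapped. The other Gm7120 locus stood at 0.59 (limma adjusted p = 0.394). Over all 18387 loci tested 0.261% passed an adjusted p of 0.05, 0.0218% higher and 0.239% lower. Of these 48 calls, 40 were loci of Celf2, a splicing regulator gene above the length limit, and 41 were loci at 0 throughout a group or with a host row at 0 throughout one. Leaving out the 48 tested loci at 0 throughout a group, no intronic locus below the limit passed, and the adjusted p of Gm7120 was 0.289 (0.00764 to 0.289 over 27 alternatives, with the call kept in 13). Here and below, the alternatives include locus limits of 200000 and 100000 bases, which reuse the main fit and so keep a call by construction. Without siScramble library 1, 26 loci passed (1.77%), 3 higher and 23 lower, where 1.35% of all loci tested did.

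Without the correction for multiple tests, 33 loci were higher and 117 lower at p under 0.05, or 2.24% and 7.94%, where 4.51% and 5.63% of all loci tested were. The median change was −0.06 (502 loci above 0, 971 below), against −0.01 over all loci tested and −0.06 over intronic loci with a longer locus. Groups did not overlap for 18 loci higher and 34 lower in siHdac4, 1.22% and 2.31%, close to the 1.71% and 2.04% of all loci tested. Centring each library on its intronic loci, which brings their median near 0 by construction, gave 855 loci above 0 and 618 below.

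Of the loci named by rank, none of the following passed. The Ncoa1 locus had FPKM of 13.1, 17.7, 26.4 and 19.9 in siScramble (libraries 1 to 4), 2.74, 7.05, 4.35 and 10.9 in siHdac4 and 12.6, 30.6, 11.3 and 24.9 in siBdnf. Ncoa1 encodes a nuclear receptor coactivator, and every siHdac4 library was below every siScramble and siBdnf library (−1.58, SE 0.39, limma adjusted p = 0.308). A locus of Adcy9, an adenylyl cyclase gene, had FPKM of 6.83, 9.20, 12.4 and 11.2 in siScramble (libraries 1 to 4), 4.86, 7.48, 3.97 and 5.97 in siHdac4 and 7.77, 7.204, 9.14 and 8.002 in siBdnf. Here siHdac4 and siScramble overlapped at siHdac4 library 2 and siScramble library 1 (−0.73, SE 0.18, limma adjusted p = 0.308). Other low-p loci lower in siHdac4 were in Desi2, Tmem108 and Zfp608 (−0.95, −0.32 and −0.81 on the log2 scale), and higher ones were in Scaf8, Arhgef37 and B3galt1 (0.30, 0.60 and 0.26), with limma adjusted p from 0.277 to 0.458.

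siBdnf was compared with the same siScramble libraries, so the comparisons share their controls. Intronic loci of 2 genes rose and none fell, where 0.277% of all loci tested passed, 0.0272% higher and 0.25% lower (40 of the 51 calls in Celf2). In Rasal2, 1 of 11 loci had FPKM of 10.2, 13.7, 10.3 and 13.1 in siScramble (libraries 1 to 4), 12.3, 12.9, 13.3 and 14.2 in siHdac4 and 21.6, 20.4, 16.3 and 19.4 in siBdnf (chromosome 1, 157135091 to 157420229, the span of the host). Rasal2 encodes a Ras GTPase-activating protein, and its siBdnf libraries were all above all others. The rise was 0.67 (SE 0.11, limma adjusted p = 0.0218), from 11.8 ± 1.85 FPKM to 19.4 ± 2.29 FPKM (SD, n = 4 each), and siHdac4 was at 0.15. Over all 11 Rasal2 loci the change ran from −0.08 to 0.67 with a median of 0.16, above 0 in 10. Its protein-coding row was under 1 FPKM and was not tested.

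The Cblb locus had FPKM of 4.17, 3.56, 4.37 and 4.99 in siScramble (libraries 1 to 4), 5.17, 4.84, 5.44 and 7.62 in siHdac4 and 9.42, 7.92, 7.14 and 8.25 in siBdnf (chromosome 16, 52031576 to 52209895, the span of the host). Cblb encodes an E3 ubiquitin ligase that restrains immune receptor signalling. All siBdnf libraries but 1 were above all others, siHdac4 library 4 lying within their range. The rise was 0.80 (SE 0.13, limma adjusted p = 0.0233), from 4.27 ± 0.590 FPKM to 8.18 ± 0.947 FPKM (SD, n = 4 each), while siHdac4 stood at 0.35 and the Cblb protein-coding row at −0.08 in siBdnf. Leaving out loci at 0 throughout a group, the adjusted p was 0.191 for both loci. Over 27 alternatives it ran from 0.00390 to 0.214 for Cblb, which kept its call in 19, and from 0.00954 to 0.209 for Rasal2, which kept it in 18.

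Unadjusted, 146 loci were higher and 16 lower in siBdnf at p under 0.05, or 9.91% and 1.09%, against 5.72% and 3.13% of all loci tested. The median change was 0.09 (1088 loci above 0, 385 below), against 0.02 over all loci tested and 0.09 over intronic loci with a longer locus. Groups did not overlap for 68 loci higher (4.62%, background 3.28%) and 11 lower (0.747%, background 1.81%). The same centring gave 785 loci above 0 and 688 below. Among loci named by rank that did not pass, that in Brinp1, a gene expressed in neurons, had FPKM of 39.0, 37.1, 44.9 and 53.0 in siScramble (libraries 1 to 4), 52.5, 50.7, 62.2 and 40.0 in siHdac4 and 59.1, 66.7, 67.0 and 77.4 in siBdnf. All siBdnf libraries were above all siScramble libraries (0.63, SE 0.14, limma adjusted p = 0.217), and the Brinp1 protein-coding row was at 0.00. The most abundant Chsy3 locus had FPKM of 12.7, 0.00, 33.6 and 8.76 in siScramble (libraries 1 to 4), 29.0, 27.5, 14.9 and 57.6 in siHdac4 and 58.1, 103, 129 and 142 in siBdnf. Chsy3 encodes a chondroitin sulfate synthase, and every siBdnf library was above all others (3.64, SE 0.85, limma adjusted p = 0.257). Elovl6, a fatty acid elongase gene, had the smallest p among loci lower in siBdnf, at 23.5 ± 17.4 FPKM and 8.84 ± 0.400 FPKM (SD, n = 4 each), a difference of −1.10 (SE 0.35, limma adjusted p = 0.447), with siScramble library 2 at 49.5 FPKM far above the others.

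siHdac4 and siBdnf were also compared directly, with loci in Prdm15 among the lower and in Mkl2 and Sirt5 among the higher in siHdac4 by rank of p. No intronic locus passed with limma (smallest adjusted p = 0.190), where 0.0272% of all loci tested did (0.0163% higher and 0.0109% lower in siHdac4), although 16 loci were higher and 321 lower in siHdac4 when unadjusted p-values under 0.05 were counted. These are 1.09% and 21.8%, against 5.14% and 10.4% of all loci tested. The median difference was −0.15 (276 loci above 0, 1197 below), the same as the −0.15 of intronic loci with a longer locus, and −0.03 over all loci tested. Groups did not overlap for 226 loci lower in siHdac4 (15.3%, background 8.45%) and 11 higher (0.747%, background 4.51%). Centred on intronic loci, 804 were above 0 and 669 below. Fitted on these 2 groups alone, 27 loci passed (1.83%), 2 higher and 25 lower, where 0.827% of all loci tested did. The Prdm15 locus had FPKM of 3.09, 3.54, 4.93 and 2.77 in siScramble (libraries 1 to 4), 2.14, 1.96, 1.36 and 2.19 in siHdac4 and 3.91, 3.61, 3.92 and 4.48 in siBdnf. Prdm15 encodes a zinc finger transcription regulator, and every siHdac4 library was below all others (−0.78, SE 0.14, limma adjusted p = 0.190). One of 3 Mkl2 loci had FPKM of 49.7, 26.9, 20.1 and 19.0 in siScramble (libraries 1 to 4), 36.9, 42.8, 36.4 and 27.4 in siHdac4 and 13.9, 18.8, 15.2 and 12.6 in siBdnf. Mkl2 encodes a coactivator of serum response factor, and every siHdac4 library was above every siBdnf library (1.19, SE 0.26, limma adjusted p = 0.21). The Sirt5 locus had FPKM of 50.2, 29.8, 105 and 109.5 in siScramble (libraries 1 to 4), 140.0, 77.6, 135 and 56.3 in siHdac4 and 18.9, 41.6, 29.4 and 58.8 in siBdnf. Sirt5 encodes a mitochondrial lysine deacylase, and siHdac4 library 4 fell within the siBdnf range (1.45, SE 0.46, limma adjusted p = 0.226).

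Measured against the host row, which takes out changes of the whole gene, 4 loci differed between siHdac4 and siScramble, 2 higher and 2 lower, where 1.54% of the 2277 intronic loci with a host row passed, 1.45% higher and 0.0878% lower. Of those 35 calls, 31 were in Celf2, all with the locus or its host row at 0 throughout a group. Osbpl6 (chromosome 2, 76406497 to 76600874), of the oxysterol-binding protein family, was higher by 0.60 (SE 0.11, limma adjusted p = 0.00921) at 1 of its 15 loci. This Osbpl6 locus had FPKM of 2.49, 2.48, 2.65 and 2.17 in siScramble (libraries 1 to 4), 4.08, 3.43, 3.89 and 3.48 in siHdac4 and 2.90, 3.68, 3.44 and 4.33 in siBdnf. All siHdac4 and siBdnf libraries were above all siScramble libraries, and its protein-coding row was at −0.15 in siHdac4. Med15 (chromosome 16, 17646532 to 17722908), a Mediator subunit gene, was higher by 1.19 (SE 0.25, limma adjusted p = 0.0304) at 1 of 2 loci, the other standing at 0.06. The called Med15 locus had FPKM of 2.41, 0.797, 2.94 and 3.69 in siScramble (libraries 1 to 4), 5.80, 4.38, 3.81 and 5.07 in siHdac4 and 4.59, 4.37, 5.57 and 3.97 in siBdnf. Again siHdac4 and siBdnf were above all siScramble libraries, and siScramble library 2 was lowest.

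Prdm15 (chromosome 16, 97790328 to 97851814), shown above, changed relative to its host by −0.64 (SE 0.14, limma adjusted p = 0.0447), with its host row at 0.00. Snx12 (chromosome X, 101090393 to 101222531), an endosomal sorting nexin gene, changed by −0.66 (SE 0.15, limma adjusted p = 0.0435) relative to its host at 1 of 2 loci, the other standing at −0.53 (limma adjusted p = 0.115). The called Snx12 locus had FPKM of 2.47, 2.57, 3.86 and 3.47 in siScramble (libraries 1 to 4), 2.36, 2.24, 2.16 and 1.94 in siHdac4 and 2.36, 2.29, 2.87 and 3.87 in siBdnf. All siHdac4 values were below all siScramble values, and the host row was at 0.31 in siHdac4 and 0.35 in siBdnf, neither past the test. Leaving out loci at 0 throughout a group, the adjusted p was 0.301 for Osbpl6 and 0.391 for the other 3. Over 24 alternatives each, the adjusted p ran from 0.00640 to 0.301 for Osbpl6, 0.0150 to 0.391 for Med15, 0.0232 to 0.391 for Prdm15 and 0.0161 to 0.391 for Snx12, and the call was kept in 23, 14, 10 and 9. Without siScramble library 1, 20 loci passed (1.92%), where 3.21% of the intronic loci tested did. The median difference relative to the host was −0.02 (476 loci above 0, 567 below), and 42 were higher and 59 lower when unadjusted p-values under 0.05 were counted, or 4.03% and 5.66%, against 5.45% and 4.79% of the intronic loci tested. Groups did not overlap for 17 loci higher (1.63%, background 3.07%) and 16 lower (1.53%, background 1.1%).

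In siBdnf 4 loci were higher relative to the host and none lower, where 1.71% of the 2277 loci passed, 1.67% higher and 0.0439% lower (31 of the 39 calls in Celf2). Rapgef6 (chromosome 11, 54522681 to 54699803), a guanine nucleotide exchange factor gene for Rap GTPases, was higher by 0.55 (SE 0.10, limma adjusted p = 0.00824) at 1 of 3 loci, the others standing at 0.15 and 0.25. The called Rapgef6 locus had FPKM of 6.52, 7.90, 9.32 and 9.28 in siScramble (libraries 1 to 4), 8.33, 10.3, 8.61 and 9.70 in siHdac4 and 11.99, 11.5, 12.2 and 13.3 in siBdnf. All siBdnf libraries were above all others, and the host row stayed between 20.5 and 26.2 FPKM. Wasf1 (chromosome 10, 40883499 to 40936738), which encodes the actin regulator WAVE1, was higher at 2 of 5 loci, by 0.60 (SE 0.12, limma adjusted p = 0.0148) and 0.89 (SE 0.17, limma adjusted p = 0.0159). The other 3 Wasf1 loci stood at 0.56 to 1.01 over the same host row without passing. The first called Wasf1 locus had FPKM of 7.51, 7.32, 9.05 and 7.63 in siScramble (libraries 1 to 4), 8.61, 8.24, 6.52 and 7.95 in siHdac4 and 6.48, 8.75, 9.68 and 8.66 in siBdnf. Its groups overlapped, and its own change was 0.07. The second called Wasf1 locus had FPKM of 15.7, 11.6, 18.2 and 23.7 in siScramble (libraries 1 to 4), 18.6, 18.1, 15.1 and 15.3 in siHdac4 and 18.9, 18.8, 24.4 and 25.7 in siBdnf, a change of 0.36 with overlapping groups. The Wasf1 protein-coding row had FPKM of 29.9, 24.3, 29.6 and 27.7 in siScramble (libraries 1 to 4), 23.4, 25.2, 22.9 and 20.6 in siHdac4 and 17.2, 19.9, 21.3 and 17.5 in siBdnf. Every siBdnf value of this row was below every siScramble value (−0.53, limma adjusted p = 0.0301), a larger change than that of either called locus.

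Bsn (chromosome 9, 108095854 to 108190362), which encodes the presynaptic active-zone scaffold Bassoon, was higher by 0.39 (SE 0.08, limma adjusted p = 0.0353). The Bsn locus had FPKM of 1.90, 2.14, 2.68 and 2.59 in siScramble (libraries 1 to 4), 1.92, 1.94, 1.63 and 1.99 in siHdac4 and 2.19, 2.78, 2.64 and 2.67 in siBdnf. Its siBdnf and siScramble levels overlapped, and the host row was at −0.28 in siBdnf. Leaving out loci at 0 throughout a group, the adjusted p was 0.0796 for Rapgef6, 0.0974 for both Wasf1 loci and 0.171 for Bsn. Over 25 alternatives it ran from 0.00462 to 0.1005 for Rapgef6, 0.0102 to 0.108 and 0.00152 to 0.152 for the Wasf1 loci, and over 24 alternatives from 0.0123 to 0.333 for Bsn, with the call kept in 23, 22, 19 and 9. The median relative to the host was 0.10 (706 loci above 0, 337 below), and 118 loci were higher and 18 lower when unadjusted p-values under 0.05 were counted. These are 11.3% and 1.73%, close to the 11.5% and 2.02% of all intronic loci tested. Groups did not overlap for 62 loci higher (5.94%, background 6.41%) and 10 lower (0.959%, background 1.19%). Centred on intronic loci, 452 were above 0 and 591 below.

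**Figure D4:**
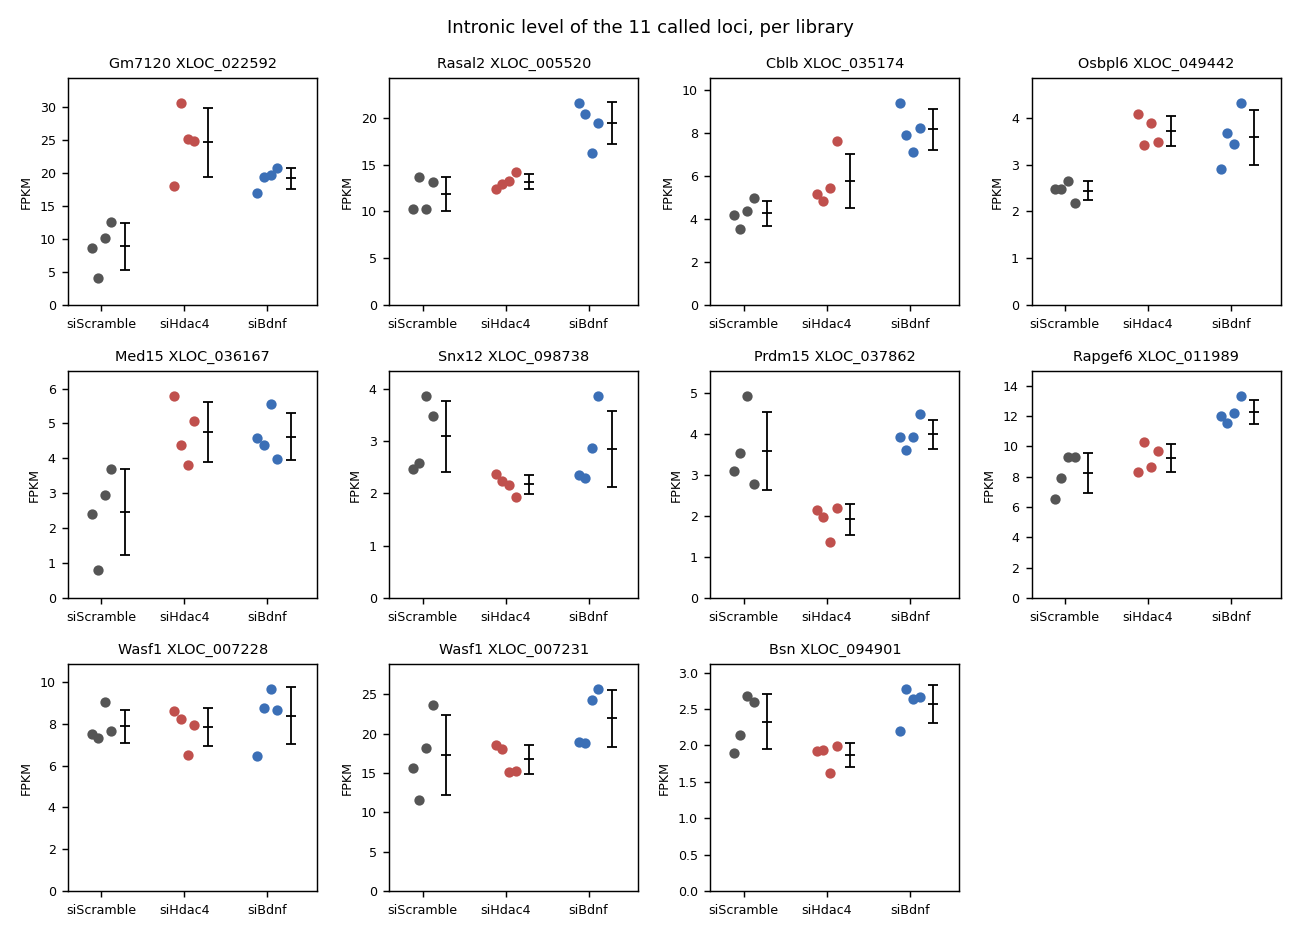
FPKM (y axis, from 0) of the 11 intronic loci that passed an adjusted p of 0.05 in any comparison, in each library of the 3 groups (points) with the group mean and SD (bars, n = 4). In Rasal2 and Rapgef6 all 4 siBdnf points lie above all others, in Prdm15 all 4 siHdac4 points lie below all others, and the Wasf1 panels overlap.

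Intronic loci were unevenly spread over hosts. One locus was found in 543 hosts, 2 to 4 in 192 and 5 or more in 52, which together hold 452 loci. In these 52 hosts the median change of the host's loci was above 0 in 16 for siHdac4 and in 47 for siBdnf, and in 3 for siHdac4 against siBdnf. Loci of 1 host share a gene and often a precursor, so they are not replicates of a condition. Zfp804a, a zinc finger gene expressed in brain, held 27 loci, with median group levels of 5.48, 5.41 and 5.68 FPKM in siScramble, siHdac4 and siBdnf. Its median change was −0.01 (−0.23 to 0.18) in siHdac4 and 0.09 (−0.18 to 0.51) in siBdnf. Plxna4, a semaphorin receptor subunit gene, held 19 loci of distinct span, with group levels of 5.76, 4.93 and 6.87 FPKM. Its median change was −0.19 (−0.43 to 0.20) in siHdac4 and 0.11 (−0.07 to 0.55) in siBdnf, and all 19 were lower in siHdac4 than in siBdnf without passing. Ext1, a heparan sulfate polymerase gene with 17 loci, stood at 0.01 (−0.44 to 0.33) in siHdac4 and 0.16 (−0.26 to 0.31) in siBdnf.

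Jazf1, a zinc finger gene with 16 loci, stood at −0.03 (−0.19 to 0.10) in siHdac4 and 0.08 (0.00 to 0.19) in siBdnf. Chsy3 with 15 loci had 0.17 (−0.24 to 1.86) and 0.15 (−0.03 to 3.64), its upper ends both from the locus described above. B3galt1, a beta-1,3-galactosyltransferase gene with 15 loci, had 0.04 (−0.26 to 0.27) and 0.14 (−0.02 to 0.28). Osbpl6 with 15 loci had 0.12 (−0.13 to 0.46) and 0.20 (−0.08 to 0.77). Adcy9 with 10 loci had the largest median difference between siHdac4 and siBdnf among the 12 hosts with most loci, −0.48, with −0.14 (−0.73 to 0.14) in siHdac4 and 0.35 (−0.25 to 0.87) in siBdnf, while its host row was at 0.02 and 0.01. Each of the 12 hosts held loci on both sides of 0 in both comparisons.

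**Figure D5:**
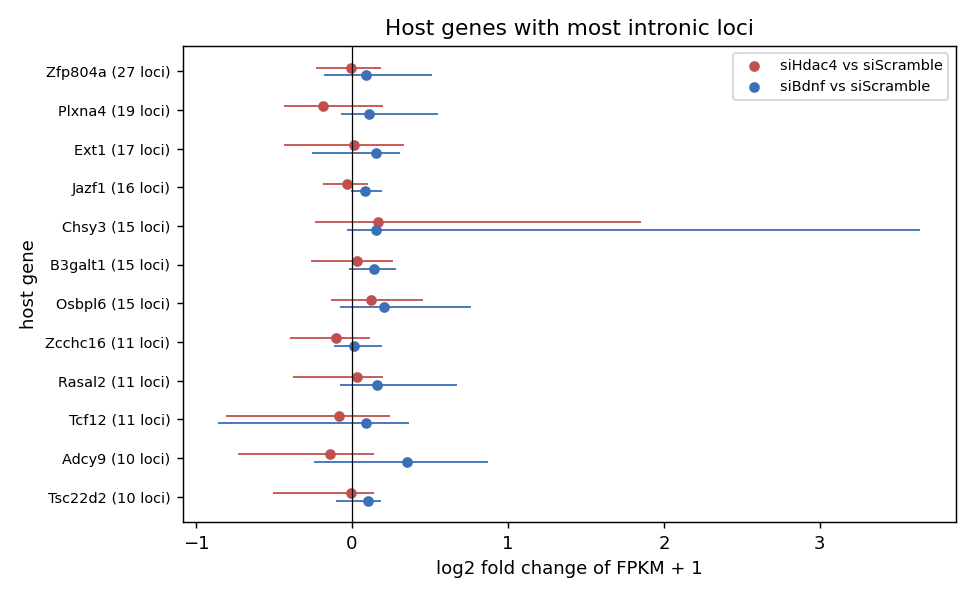
Log2 fold change of the intronic loci (x axis) of the 12 host genes with most loci (y axis), as median (point) and full range (line), for siHdac4 (red) and siBdnf (blue) against the same siScramble libraries. Medians for siBdnf are all above 0, and the Chsy3 lines are longest.

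Hosts were grouped by role from lists of genes, chosen with earlier results of these data known. The lists hold few of the loci, and counts above 0 are read against the 73.9% of all 1473 loci that were above 0 in siBdnf and the 34.1% in siHdac4. Regulators of small GTPases and the cytoskeleton held 33 loci in 13 hosts, of which 1 rose in siBdnf (Rasal2). In siBdnf 32 of the 33 were above 0 with a median of 0.21, and 10 (30.3%) were higher at an unadjusted p under 0.05, against 9.91% of the 1473 loci and 5.72% of all loci tested. Rasal2 alone held 11 of the 33 loci and 4 of the 10. Without Rasal2, all 22 loci were above 0 with a median of 0.25, and 6 (27.3%) were higher at an unadjusted p under 0.05. Loci of 1 host are not independent, and Rasal2 was known from earlier results, so these shares are a description and not a test. Their 12 host rows had a median of −0.06, and in siHdac4 13 loci were above 0 with a median of −0.06. A locus of Clasp1, a microtubule plus-end protein gene, had FPKM of 5.61, 7.58, 17.7 and 7.11 in siScramble (libraries 1 to 4), 4.40, 0.00, 4.66 and 9.98 in siHdac4 and 21.9, 15.6, 22.4 and 25.3 in siBdnf. Its siBdnf libraries were mostly high and overlapped siScramble library 3. The ubiquitin list held 10 loci in 8 hosts, 1 of them past the test in siBdnf (Cblb), with 5 above 0 and a median of 0.05.

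RNA-binding and splicing genes held 29 loci in 14 hosts, with none past the test and medians of −0.10 in siHdac4 and 0.18 in siBdnf. A locus of Tra2a, a splicing regulator gene, averaged 27.6 ± 6.09 FPKM, 20.6 ± 3.54 FPKM and 34.0 ± 2.46 FPKM (SD, n = 4 each). Chromatin and transcription genes held 80 loci in 21 hosts, none past the test, with medians of −0.09 (16 above 0) in siHdac4 and 0.09 (58 above 0) in siBdnf. The most abundant Crebbp locus, in the gene of a histone acetyltransferase, had FPKM of 71.5, 177, 287 and 249 in siScramble (libraries 1 to 4), 97.7, 60.6, 41.4 and 149 in siHdac4 and 184, 246, 296 and 329.6 in siBdnf. It was lowest in siHdac4 libraries 2 and 3 and highest in siBdnf libraries 3 and 4, with overlapping groups (−1.15, SE 0.45, limma adjusted p = 0.472, siHdac4 against siScramble). The 21 loci of kinase, phosphatase and signalling hosts (4 hosts, 10 of the loci in Adcy9) had medians of −0.07 and 0.10.

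Synaptic hosts held few loci. The postsynaptic list had 13 loci in 6 hosts, none past the test, with medians of −0.04 in siHdac4 and 0.04 in siBdnf. One of 2 Iqsec2 loci had FPKM of 2.63, 1.88, 2.93 and 2.34 in siScramble (libraries 1 to 4), 2.52, 2.70, 3.03 and 2.05 in siHdac4 and 3.32, 4.36, 3.47 and 4.78 in siBdnf. Iqsec2 encodes an Arf exchange factor of the postsynaptic density, and every siBdnf library exceeded all others (0.53, SE 0.13, limma adjusted p = 0.294). The presynaptic list had 5 loci in 2 hosts, Bsn and Rims1, with medians of −0.17 and 0.07. A locus of Rims1, an active-zone scaffold gene, had FPKM of 30.6, 87.5, 56.0 and 41.4 in siScramble (libraries 1 to 4), 23.2, 17.7, 24.6 and 48.5 in siHdac4 and 49.2, 53.4, 40.2 and 64.3 in siBdnf. It was lowest in siHdac4 libraries 1 to 3, and the groups overlapped. Ion channel and transporter hosts had 15 loci in 8 hosts with medians of −0.11 and 0.08. A locus of Kcnip1, a potassium channel-interacting protein gene, had FPKM of 21.7, 81.9, 212 and 115 in siScramble (libraries 1 to 4), 32.4, 27.5, 26.7 and 43.5 in siHdac4 and 58.1, 216, 84.0 and 105 in siBdnf. It was highest in siScramble 3 and siBdnf 2, the libraries in which Rsph3a and Atf2 were highest.

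The authors' deposited tables gave other calls. At a false discovery rate under 0.05, the authors' deposited table for siHdac4 called 13 of the 1473 loci, 2 higher (Npffr2 and Abcc6) and 11 lower, where 0.991% of its 22306 loci were called, 0.233% higher and 0.753% lower. Those named, some of them predicted genes and named after their calls were seen, were in 9330185C12Rik, Kcnip1, Kcnh6, Il31ra, Smim4, Gm26561, Foxo1, Cdk8, Vwa3a and Rec114. The authors' deposited table for siBdnf called 4 of the 1473, Plxna4 higher and Ostn, Npffr2 and Cdk8 lower, where 0.632% of its loci were called, 0.152% higher and 0.48% lower. None of these passed the limma test. In the authors' deposited tables the log2 fold change of Npffr2 was 0.63 in siHdac4 and −1.49 in siBdnf, and that of Abcc6 was 1.15 in siHdac4. The called Cdk8 decreases involve the siScramble group whose library 3 was at 9486 FPKM. That library was also the highest of siScramble at every other locus named as lower in siHdac4 except Rec114. Gm26561, for example, was at 1886 FPKM there and at 167 to 688 FPKM in the other siScramble libraries. The 11 loci called by limma had false discovery rates above 0.05 in those tables.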

How the data were processed

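Poly(A)-selected RNA-seq of hippocampus was analysed in 12 libraries, 4 per group, from 2 tables that hold the same siScramble values. The authors deposited FPKM per locus and library, with their own log2 fold changes, p-values and false discovery rates. TopHat2 2.0.9, Cufflinks and Cuffdiff were used, per the submitters' processing notes, and the annotation and strand setting are not given in the sources used here. FPKM are not counts and keep no depth, so no count model, interval or floor was used.

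From the deposited FPKM, log2(FPKM + 1) was computed for 18387 loci (mean of 1 FPKM or more) and fitted over all 3 groups with limma 3.58.1 (R 4.3.3, trended prior). Intronic minus host values were fitted likewise over 2277 intronic loci. P-values were adjusted by Benjamini-Hochberg over each whole table, with a threshold of 0.05. On simulated data for siHdac4 against siScramble (18387 loci), 58%, 88%, 98% and 100% of loci changed by 0.5, 1, 2 and 4 (log2) were called, with 8 false calls. In the simulation 50 loci of any type were changed at each size. Normal values were drawn independently for each locus, without the shifts that intronic loci of a library share. The shares are therefore not the detection rate for intronic loci in these data.

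Members and lists were chosen with earlier results of these data known. Loci named were the 6 of smallest p in each direction per comparison, the 10 most abundant, the 6 highest and lowest over host, the 6 hosts with most loci, the 2 host loci nearest the length limit on each side, up to 3 per role list, and Cblb and Rasal2. Predicted genes were left out unless abundant. Gm7120, the pseudogene loci, the authors' calls, further hosts among the 12 with most loci, Btbd3, Ube2v2 and Celf2 were named after their values were seen. The result for 1 gene is not reported here. Alternatives covered the pseudocount, filters, scaling, samples in the fit, a replicate block, the variance model, loci listed at 0, left-out libraries and the length limit.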

Additional observations from a re-analysis of the deposited data

Results flagged for a closer look

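Single libraries were flagged at 5 of the loci described, among 108 groups of 4 checked. The flag compares a library's gap to the other 3 with the range of the group. Chance flags about 1 in 20 groups, so 5 of 108 is no more than chance would give. The Cdk8 locus was at 9486 FPKM in siScramble library 3, with the others at 1353 to 2333 FPKM. The Clasp1 locus was at 17.7 FPKM in the same library, with the others at 5.61 to 7.58 FPKM. The Elovl6 locus was at 49.5 FPKM in siScramble library 2, against 13.3 to 16.9 FPKM. The 1700128E19Rik pseudogene locus was at 169 FPKM in siBdnf library 2, against 197 to 199.5 FPKM, and the 1700016D06Rik pseudogene locus at 10.7 FPKM in siHdac4 library 2, against 8.32 to 8.52 FPKM. At both pseudogene loci the other libraries lay close together, so a small gap was enough for the flag.

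The median of the 1473 intronic loci moved in opposite directions in the siHdac4 and siBdnf libraries. Relative to the mean of the siScramble libraries, it was −0.112 to −0.0195 (log2) in the 4 siHdac4 libraries and 0.0390 to 0.176 in the 4 siBdnf libraries. This difference was not tested. The siScramble libraries themselves varied with an SD of 0.10 around that mean.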

How the results depend on the processing

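Of 276 alternatives for the 11 called loci, 179 kept the call, 97 lost it and 0 turned the direction. The limits of 200000 and 100000 bases reuse the main fit, so all 11 loci count as kept there by construction, also those with longer loci. Of 131 alternatives for medians, 125 moved by less than 1 SD between libraries of a group (0.0719 for levels and 0.0519 relative to the host), an SD larger than the siHdac4 medians against siScramble. Many of these cannot move a median, so the count is no measure of stability. They are the prior without trend, the 2 compared groups alone, the replicate block, intronic loci only and leaving out a library of the group not compared. The causes of the changes below were not tested. Leaving out each library in turn gave 0 to 26 loci called for siHdac4 (26 without siScramble library 1, where 1.35% of all loci passed), 0 to 3 for siBdnf and 0 to 2 for siHdac4 against siBdnf, with medians of −0.10 to −0.03, 0.04 to 0.12 and −0.16 to −0.12. Relative to the host it gave 1 to 20 loci for siHdac4 and 1 to 8 for siBdnf, with medians of −0.05 to −0.01 and 0.07 to 0.12.

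Without loci listed at 0 through a group, 0 loci were called in every comparison. With a pseudocount of 0.1, siHdac4 had 0 called loci and 2 relative to the host. At a minimum of 5 FPKM, the siHdac4 against siBdnf median was −0.25, the siBdnf median relative to the host 0.16, and 0 loci were called for siHdac4 relative to the host. Quantile normalization left 2 called for siHdac4 relative to the host. Centring on intronic loci, which brings their median near 0 by construction and so says nothing of stability, turned 3 medians, to 0.0346 for siHdac4, 0.0232 for siHdac4 against siBdnf and −0.0390 for siBdnf relative to the host, moved that of siBdnf to 0.00979 and left 1 siBdnf call. With the 2 compared groups alone, 0 loci were called for siHdac4, 1 for siBdnf, 27 for siHdac4 against siBdnf (0.827% of all loci passed) and 1 for siHdac4 relative to the host. Library weights gave 0 for siHdac4, 14 for siHdac4 against siBdnf, and 10 and 7 relative to the host for siHdac4 and siBdnf. With intronic loci only, 3 were called for siHdac4. Without siScramble libraries 1 and 3, 2 were called for siHdac4, 1 for siBdnf, 1 for siHdac4 against siBdnf, and 7 and 1 relative to the host. Below 200000 bases 1 was called for siBdnf, and below 100000 bases 0 for siHdac4, 0 for siBdnf and 2 for siHdac4 relative to the host.

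Replicate numbers did not meet the rule that every same-numbered pair correlates above 0.1: 4 of 12 did (−0.08 to 0.24, median 0.01), among them all 3 pairs of libraries numbered 4 (0.243, 0.193 and 0.129). The 36 pairs with different numbers ran from −0.381 to 0.291, with a median of −0.006. With the replicate block, 0 loci were called for siHdac4 and 10 for siBdnf relative to the host, where 2.11% of the intronic loci tested were. Depth is unknown in FPKM, so what it limits could not be assessed.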
